A study of Mus musculus with 6 samples.

Results

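The genes described here are 10 glycoproteins of the extracellular matrix: Fn1, Postn, Tnc, Fbln1, Fbln2, Fbln5, Thbs1, Thbs2, Sparc and Fbn1. They were taken by symbol from a table of 24421 gene symbols, and all 10 were among the 15604 genes that passed the filter on low counts. Read counts came from 6 neurofibromas, tumours of the peripheral nerve sheath, of C57BL/6J mice with floxed Nf1 (Nf1fl/fl) and DhhCre. DhhCre is a Cre recombinase under the promoter of desert hedgehog, a gene of the Schwann cell lineage, so the recombination of Nf1 is directed to that lineage and the other cells of the tumour need not carry it. Tumours Nf803, Nf809 and Nf827 form the group Nf1KO, 3 tumours labelled Nf1 -/-. Tumours MiRNC149, MiRNC640 and MiRNC670 form the group miR155KO_Nf1KO, 3 tumours that share the floxed Nf1 and DhhCre and are labelled Mir-155 KO. No drug was given to either group. Age at collection, and the cells that lack miR-155, were not given in the sources used here. The study compared the groups to look for possible targets of miR-155.

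Fibronectin, the fibulins and fibrillin are built into the fibres and networks that hold a tissue together. Matricellular proteins such as periostin, tenascin-C, thrombospondins and SPARC sit in the same matrix, but mainly act on cells by binding integrins, growth factors and other matrix molecules. In nerve sheath tumours much of this matrix is made by fibroblasts, perineurial cells and Schwann cells, and several of these genes are also switched on during wound repair. A microRNA lowers the transcripts that it pairs with, mostly through bases 2 to 8 of its 5′ end, the seed.

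The table held 13061129 to 16333181 reads per tumour, and the 10 genes took 0.554% to 1.43% of them. Mir155hg, the host transcript of miR-155, was at 0.322, 0.203 and 0.0792 CPM in the miR155KO_Nf1KO tumours against 4.14, 4.08 and 4.75 CPM in the others. CPM is the read count scaled to a library of 1000000 reads after TMM scaling. By Xist and Y-linked reads, tumours MiRNC149, Nf803 and Nf827 were female and the other 3 were male. Tumours Nf809 and MiRNC670 held the most skeletal muscle transcripts, with summed muscle marker levels of 19961 and 12580 CPM against 104 to 2640 CPM in the other 4 tumours. The labels do not say that the tumours of a group came from separate animals, so p-values measure only the spread between these tumours.

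The transcripts of 6 of the 10 genes fell in miR155KO_Nf1KO tumours: Fn1, Postn, Tnc, Thbs2, Fbln2 and Fbn1, by 1.89-fold to 3.89-fold in mean CPM. Over all tested genes 4.74% were called lower at an adjusted p under 0.05 and 5.22% were called higher, 9.96% in all. None of the 10 was called higher by edgeR; Fbln5, the single gene with a positive fold change, had an unadjusted p of 0.0173. DESeq2 called 7 of the 10 lower and 1, Fbln5, higher, beside 9.47% and 9.57% of all genes it tested. The tumour ranges of the groups did not overlap for 7 genes, the 6 named and Thbs1, each time with miR155KO_Nf1KO lower. Such a separation was found for 16.3% of all tested genes. The median log2 fold change of the 10 genes was −1.20, against 0.01 over all tested genes. Summed over the 10 genes, levels were 5726 to 6335 CPM in miR155KO_Nf1KO and 8887 to 14077 CPM in Nf1KO. In bulk tumours, fewer cells of a type and less RNA per cell cannot be told apart.

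**Figure D1:**
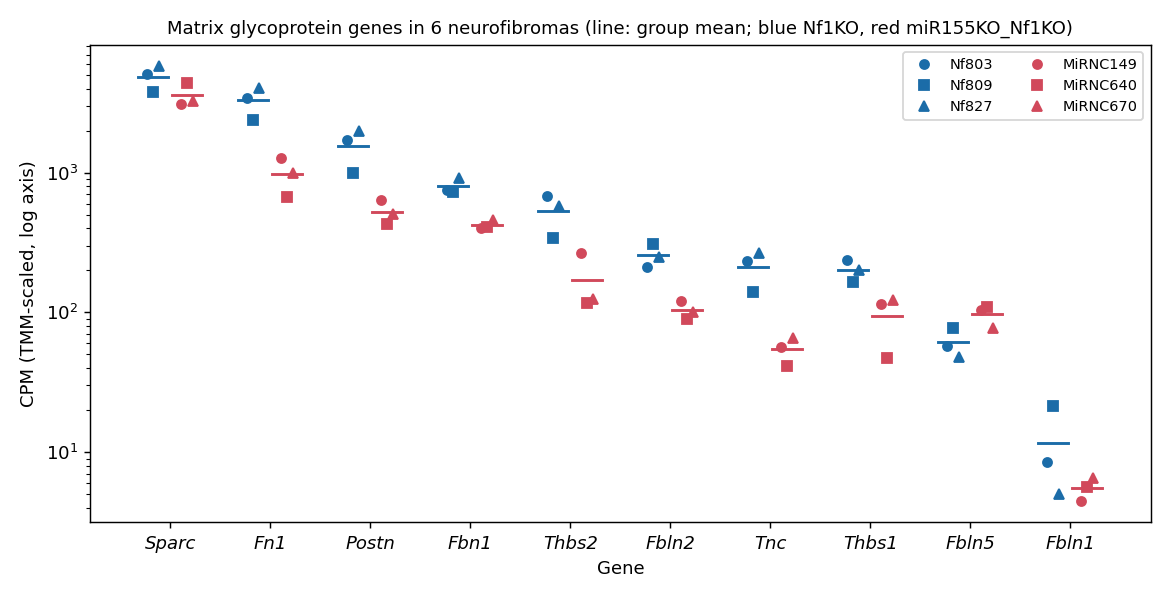
Level of each gene in each tumour, as TMM-scaled CPM on a log axis, with genes ordered by their Nf1KO mean. Horizontal lines are group means, and shapes mark tumours without pairing them across groups. Both groups overlap for Sparc, Fbln5 and Fbln1, and the miR155KO_Nf1KO points lie below the Nf1KO points for the other 7 genes.

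The 6 calls depended on single tumours in the edgeR fit. All 6 were kept without tumour MiRNC149 or without tumour Nf809. None was called without MiRNC640, MiRNC670, Nf803 or Nf827, where adjusted p-values of the 6 genes ran from 0.0525 to 0.142. Without MiRNC640, 142 genes of the whole table were called, and none without each of the other 3. The counts of genes at an unadjusted p under 0.05 were then 3403, 3240, 3335 and 3265, against 4163 with all 6 tumours. DESeq2 called 6 to 8 of the 10 genes lower in every fit that left out 1 tumour. The log2 fold change of each of the 10 genes kept its sign under all 23 alternatives computed.

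**Figure D2:**
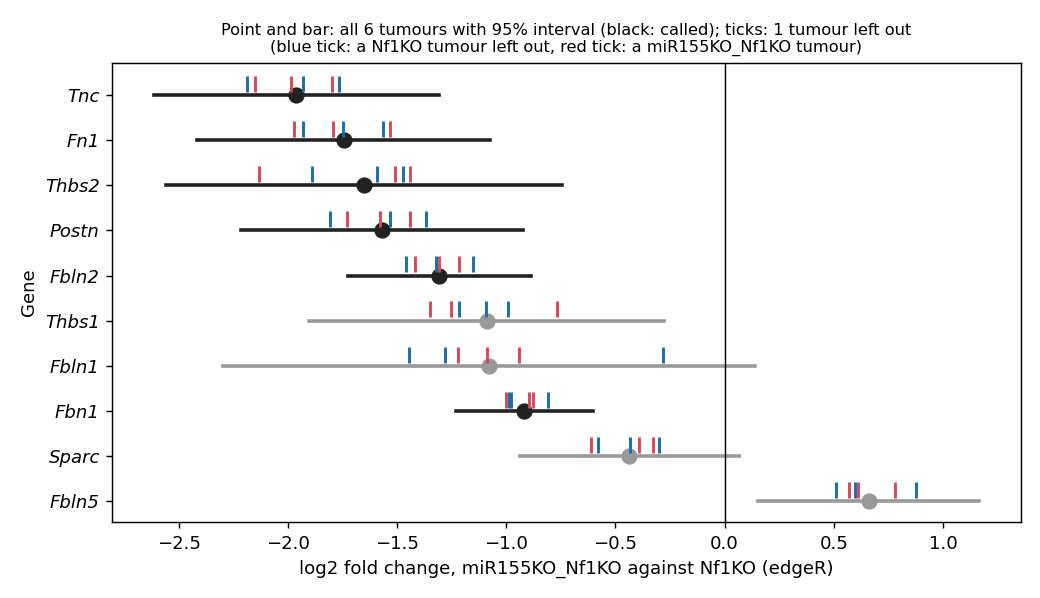
Log2 fold change of each gene, miR155KO_Nf1KO against Nf1KO, from edgeR. Points with bars are the fit to all 6 tumours with its 95% interval, black where called at an adjusted p under 0.05 and grey otherwise, and each tick is the fit without 1 tumour. All ticks lie left of 0 except those of Fbln5, and the tick of Fbln1 nearest 0 is the fit without tumour Nf809.

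Fn1 encodes fibronectin, the adhesive glycoprotein that integrins assemble into the first fibrils of a repairing matrix. Its gene lies at chr1:71585520-71653200 on GRCm38. Fn1 was at 1270, 673 and 999 CPM in tumours MiRNC149, MiRNC640 and MiRNC670, and at 3428, 2366 and 4066 CPM in Nf803, Nf809 and Nf827. Every Nf1KO tumour stood above every miR155KO_Nf1KO tumour, and the lowest of the first was 1.86 times the highest of the second. The means were 981 ± 299 and 3286 ± 859 CPM (SD, n = 3 each), with a log2 fold change of −1.74 (SE 0.29, edgeR's quasi-likelihood fit, Benjamini-Hochberg adjusted p = 0.0236). Fn1 was the gene at rank 15 of all tested genes by mean CPM in Nf1KO and at rank 66 in miR155KO_Nf1KO.

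Postn encodes periostin, a matricellular protein that binds integrins and helps collagen crosslinking. Its levels were 642, 429 and 509 CPM in MiRNC149, MiRNC640 and MiRNC670, and 1719, 993 and 1976 CPM in Nf803, Nf809 and Nf827. The ranges did not overlap, and tumour Nf809 was the low one of the Nf1KO group. Postn fell from 1563 ± 510 to 527 ± 108 CPM (SD, n = 3 each), a log2 fold change of −1.57 (SE 0.28, edgeR's quasi-likelihood fit, Benjamini-Hochberg adjusted p = 0.0253).

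Tnc encodes tenascin-C, an anti-adhesive glycoprotein of developing, injured and tumour tissue. It stood at 56.5, 41.4 and 65.9 CPM in MiRNC149, MiRNC640 and MiRNC670, against 231 CPM in Nf803, 139 CPM in Nf809 and 267 CPM in Nf827. The miR155KO_Nf1KO tumours lay close together, and even Nf809 was 2.12 times the highest of them. From 213 ± 65.9 to 54.6 ± 12.4 CPM (SD, n = 3 each), Tnc had the largest fall of the 10 genes, with a log2 fold change of −1.96 (SE 0.28, edgeR's quasi-likelihood fit, Benjamini-Hochberg adjusted p = 0.0201).

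RefSeq promoter windows, 250 bases before to 50 after a start site, were at hand for 8 of the 10 genes; Fn1 and Thbs1 had none. Motifs were searched on both strands: GGGCGG for Sp1, TATAAA for the TATA box, TGANTCA for AP-1, GGAATG for TEAD and CACGTG for the E-box. None of these overlaps another in the windows printed here. Postn, Tnc, Fbln5 and Fbln1 have more than 1 start site, which made 12 windows in all. The TATA letters were found in 4 of the 12 windows, belonging to Postn, Tnc and Thbs2, and in 13.6% of all 32851 windows. The Sp1 letters were found in 6 of the 12 and in 35.7% of all windows. The E-box letters were in 2 of the 12, both of Fbln1, and in 7.15% of all windows. The 2 Fbln1 windows overlap and share 1 E-box match, and the 2 Tnc windows overlap and share their Sp1 and TATA matches. These counts of windows therefore hold some matches more than once. By gene, the TATA letters were found for 3 of the 8, the Sp1 letters for 5 and the E-box letters for 1. No window of the 8 genes held the AP-1 or TEAD letters, which 7.81% and 14.7% of all windows hold. One window each of Postn and Tnc, which fell, and of Fbln5, which had a positive fold change, is shown 5′ to 3′ on the gene's strand, to set the pair with a TATA match beside the one without. Capitals mark motif matches, and GGGCGG on the opposite strand reads as CCGCCC.
Postn, chr3:54360857-54361156, GRCm38.p6, plus strand: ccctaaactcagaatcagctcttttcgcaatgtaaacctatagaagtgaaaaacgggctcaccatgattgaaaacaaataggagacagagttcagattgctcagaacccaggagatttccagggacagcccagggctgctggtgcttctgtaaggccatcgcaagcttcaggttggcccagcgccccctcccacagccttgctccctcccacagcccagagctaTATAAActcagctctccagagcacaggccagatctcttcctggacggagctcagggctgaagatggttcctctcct
Tnc, chr4:64046966-64047265, GRCm38.p6, minus strand: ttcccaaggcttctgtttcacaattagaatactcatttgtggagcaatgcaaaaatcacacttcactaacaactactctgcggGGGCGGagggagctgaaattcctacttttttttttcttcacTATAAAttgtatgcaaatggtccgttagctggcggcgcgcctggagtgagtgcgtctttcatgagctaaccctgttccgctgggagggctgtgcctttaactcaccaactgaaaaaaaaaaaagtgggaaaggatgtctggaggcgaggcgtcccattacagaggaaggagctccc
Fbln5, chr12:101819070-101819369, GRCm38.p6, minus strand: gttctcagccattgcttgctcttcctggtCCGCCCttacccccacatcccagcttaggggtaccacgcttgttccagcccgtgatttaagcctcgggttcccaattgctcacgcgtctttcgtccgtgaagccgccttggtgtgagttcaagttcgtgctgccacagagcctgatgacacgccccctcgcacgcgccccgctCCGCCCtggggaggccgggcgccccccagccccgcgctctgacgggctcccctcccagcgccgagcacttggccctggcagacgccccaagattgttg
The TATA letters began 26 bases before the start site in this window of Postn and 126 bases before it in that of Tnc. The other Tnc window puts the same match 205 bases before its start site, and the other Postn window has none. Tnc and Fbln5 held 1 and 2 Sp1 matches in these windows, and Postn held none. The windows of Fbln2 and Fbn1, which also fell, held no TATA match and 2 and 1 Sp1 matches. A link between these motifs and the direction of change was not tested.

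Thbs1 and Thbs2 encode thrombospondin-1 and thrombospondin-2, close relatives that bind CD36, CD47 and integrins and restrain vessel growth. Thbs2 was at 268, 117 and 126 CPM in MiRNC149, MiRNC640 and MiRNC670, and at 686, 340 and 580 CPM in Nf803, Nf809 and Nf827. The groups did not overlap, but the highest miR155KO_Nf1KO tumour, MiRNC149, and the lowest Nf1KO tumour, Nf809, came nearer each other than in the genes above. Thbs2 fell with a log2 fold change of −1.65 (SE 0.39, edgeR's quasi-likelihood fit, Benjamini-Hochberg adjusted p = 0.0409).

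Thbs1 was at 115, 47.1 and 122 CPM in MiRNC149, MiRNC640 and MiRNC670, and at 237, 166 and 202 CPM in Nf803, Nf809 and Nf827. All Nf1KO tumours were higher, and tumour MiRNC640 was far below the other 2 of its group. The log2 fold change of −1.09 (SE 0.35) missed the threshold (edgeR's quasi-likelihood fit, Benjamini-Hochberg adjusted p = 0.0933), while DESeq2 called Thbs1 lower (DESeq2 adjusted p = 0.0125). The log2 ratio of Thbs1 to Thbs2 reads was −0.86 ± 0.71 in miR155KO_Nf1KO and −1.36 ± 0.28 in Nf1KO (SD, n = 3 each). These ratios overlapped between groups (two-sided exact permutation test, p = 0.3, Benjamini-Hochberg adjusted p = 0.4 over 4 ratios compared), and the higher mean rested on tumour MiRNC670, at −0.04. The smallest p that 3 tumours against 3 can give is 0.1.

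Sparc encodes osteonectin, a collagen-binding protein that guides fibril assembly, and was by far the most abundant of the 10 per kilobase of exon. Its levels were 3095, 4415 and 3264 CPM in MiRNC149, MiRNC640 and MiRNC670, and 5056, 3754 and 5763 CPM in Nf803, Nf809 and Nf827. The groups overlapped, since MiRNC640 stood above Nf809. The log2 fold change was −0.44 (95% interval −0.94 to 0.07, edgeR's quasi-likelihood fit, Benjamini-Hochberg adjusted p = 0.245). Sparc made up 50.9% to 69.7% of the reads of the 10 genes in miR155KO_Nf1KO, and 40.8% to 42.2% in Nf1KO. The share of Fn1 was 10.6% to 20.9% against 26.6% to 28.9%. Tumour MiRNC640, with the highest Sparc level of its group, also held the most adipocyte transcripts, a summed marker level of 2206 CPM against 40.9 to 617 CPM in the other 5 tumours, and the part of this in the Sparc value was not tested.

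Fbn1 encodes fibrillin-1, the backbone of the microfibrils that carry elastin and latent TGF-beta complexes. It was at 402, 409 and 456 CPM in MiRNC149, MiRNC640 and MiRNC670, and at 751, 723 and 919 CPM in Nf803, Nf809 and Nf827. Both groups were narrow and lay apart, with Nf809 at 1.59 times MiRNC670. Fbn1 had the smallest fall of the 6 called genes and the smallest standard error, with a log2 fold change of −0.92 (SE 0.13, edgeR's quasi-likelihood fit, Benjamini-Hochberg adjusted p = 0.0201).

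The fibulins are matrix glycoproteins that bind elastin, fibrillin and basement membrane proteins, and the 3 measured here differed. Fbln2 was at 120, 90.0 and 100.2 CPM in MiRNC149, MiRNC640 and MiRNC670, and at 210.1, 306 and 251 CPM in Nf803, Nf809 and Nf827. The groups lay apart, and Nf809 was the highest tumour here, unlike for the genes above. Fbln2 fell with a log2 fold change of −1.31 (SE 0.18, edgeR's quasi-likelihood fit, Benjamini-Hochberg adjusted p = 0.0201).

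Fbln5, which links elastin to microfibrils and to cell surface integrins, was at 104, 109 and 77.1 CPM in MiRNC149, MiRNC640 and MiRNC670. In Nf803, Nf809 and Nf827 it was at 57.8, 77.5 and 48.3 CPM. The groups overlapped only in that MiRNC670 was just below Nf809, the 2 tumours rich in muscle transcripts. The log2 fold change was 0.66 (95% interval 0.16 to 1.17, edgeR's quasi-likelihood fit, Benjamini-Hochberg adjusted p = 0.0999). Without Nf809 the value was 0.88, called by edgeR (Benjamini-Hochberg adjusted p = 0.0356), and DESeq2 called Fbln5 higher with all 6 tumours (adjusted p = 0.0430). Of the 23 alternatives computed, 6 called Fbln5 higher and 17 did not. Among the 17 were sex as a covariate (edgeR's quasi-likelihood fit, Benjamini-Hochberg adjusted p = 0.160) and DESeq2 without MiRNC640 (DESeq2 adjusted p = 0.209).

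Fbln5 was the single gene of the 10 with a match to the miR-155-5p seed in its longest annotated 3′ UTR. The microRNA lies at chr16:84714143-84714165 and its seed is in capitals. The site is a 7-base match to bases 2 to 8, in capitals, at position 1858 of a UTR of 4177 bases, chr12:101748867-101748895 on the minus strand of GRCm38. Both are printed 5′ to 3′, the microRNA from RefSeq and the site from GENCODE M21.
miR-155-5p: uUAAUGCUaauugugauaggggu
Fbln5 3′ UTR site: agaggcaaaaaAGCATTAccacctacatc
Of tested genes with an annotated 3′ UTR, 14.2% (1989 of 14027) held a seed site. Counted as seed sites were matches to bases 2 to 8, and matches to bases 2 to 7 followed by an A. The 9 other genes had 3′ UTRs of 648 to 2104 bases with no match.

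Fbln1 was low, at 4.51, 5.61 and 6.49 CPM in MiRNC149, MiRNC640 and MiRNC670, and 8.49, 21.5 and 5.02 CPM in Nf803, Nf809 and Nf827. These values rest on 70 to 348 reads per tumour. The groups overlapped and tumour Nf809 stood far above the rest. The log2 fold change of −1.08 (SE 0.52, edgeR's quasi-likelihood fit, Benjamini-Hochberg adjusted p = 0.238) became −0.28 without Nf809.

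The balance of Fbln2 to Fbln5 differed more between groups than either level, which follows from the opposite signs of their fold changes. The log2 ratio of Fbln2 to Fbln5 reads was 0.20, −0.27 and 0.38 in MiRNC149, MiRNC640 and MiRNC670, and 1.86, 1.98 and 2.38 in Nf803, Nf809 and Nf827. The groups lay far apart, with means of 0.10 ± 0.34 and 2.07 ± 0.27 (SD, n = 3 each), a difference of −1.97 (two-sided exact permutation test, p = 0.1, Benjamini-Hochberg adjusted p = 0.2 over 4 ratios). The ratio of Fbln1 to Fbln5 also did not overlap, with a difference of −1.50 and the same p. The ratio of Fbln1 to Fbln2 overlapped between groups, with a difference of 0.47 (two-sided exact permutation test, p = 0.7, adjusted p = 0.7).

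Levels of different genes were compared as mean CPM per kilobase of merged GENCODE M21 exons. In Nf1KO the order was Sparc at 1282, Fn1 at 281, Postn at 180, Thbs2 at 76.4, Fbn1 at 65.8, Fbln2 at 40.1, Thbs1 at 33.3, Tnc at 27.4, Fbln5 at 8.85 and Fbln1 at 2.67 CPM per kilobase. Ranges of neighbours overlapped for Fn1 and Postn, Thbs2 and Fbn1, Fbln2 and Thbs1, and Thbs1 and Tnc over the tumours. Within tumours, Fn1 was above Postn in all 3, and the other pairs kept this order in 2 of 3. In miR155KO_Nf1KO the order was Sparc at 948, Fn1 at 83.9, Postn at 60.5, Fbn1 at 34.8, Thbs2 at 24.3, Fbln2 at 16.2, Thbs1 at 15.6, Fbln5 at 14.0, Tnc at 7.03 and Fbln1 at 1.27 CPM per kilobase. The neighbours from Fbn1 to Fbln5 overlapped pair by pair there, as did Fn1 and Postn, although Fn1 was again above Postn in all 3 tumours. Tnc stood above Fbln5 in all 3 Nf1KO tumours and below it in all 3 miR155KO_Nf1KO tumours.

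Within each group the genes did not all follow 1 tumour. Tumour MiRNC640 was the lowest of miR155KO_Nf1KO for 6 of the 10 genes. Tumour Nf809 was the lowest of Nf1KO for 7 genes but the highest for the 3 fibulins among the 10. The muscle transcripts of Nf809 stand beside these values, and their part in them was not tested. With MiRNC670 and Nf809 both left out, edgeR called 5 of the 10 genes lower and Fbln5 higher. Over all genes that fit called 1078 of 15753 tested. Thbs2 was the call lost, with a Benjamini-Hochberg adjusted p of 0.0601.

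Markers of other cells were counted beside these genes. Of 12 fibroblast markers, 3 fell (Col1a2, Lum and Col3a1) and none rose, with a median log2 fold change of −0.68. The log2 fold change was negative for 9 of the 12. It was positive for Dpt, Mfap5 and Clec3b, at 0.58, 0.40 and 0.89, without a call. The markers of highest mean level were the matrix genes Dcn and Col1a2. Their summed level was 5245 to 6432 CPM in miR155KO_Nf1KO and 10429 to 11226 CPM in Nf1KO. Of 12 macrophage markers, 6 fell, among them the integrin Itgam from 745 ± 250 to 137 ± 39.8 CPM (SD, n = 3 each), and the sums were 573 to 1209 against 1539 to 2645 CPM. The macrophage median log2 fold change was −1.58. Of 7 tested perineurial markers 1 fell, the tight junction gene Cldn1, with a list median of −0.20. Their sums were 534 to 905 against 991 to 1872 CPM, but without Cldn1 they overlapped, at 406 to 625 against 494 to 781 CPM, a sum chosen after the data were seen.

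Transcripts of sensory neurons stood the other way, with 7 of 12 called higher and none lower. Their sums were 5510 to 8771 CPM in miR155KO_Nf1KO and 1336 to 2677 CPM in Nf1KO, and the neurofilament gene Nefl was at 2555 ± 732 against 708 ± 303 CPM (SD, n = 3 each). The Schwann cell markers summed to 5016 to 6060 against 4064 to 4624 CPM, and S100b, a calcium-binding protein of Schwann cells, rose by 1.43 on the log2 scale. No adipocyte, skeletal muscle, endothelial, pericyte or mast cell marker was called in either direction, and no listed marker was at 0 in every tumour. Apart from those of highest mean level, the markers named here were chosen after their values were seen. The part of these cells in the falls of the 10 genes was not tested.

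**Figure D3:**
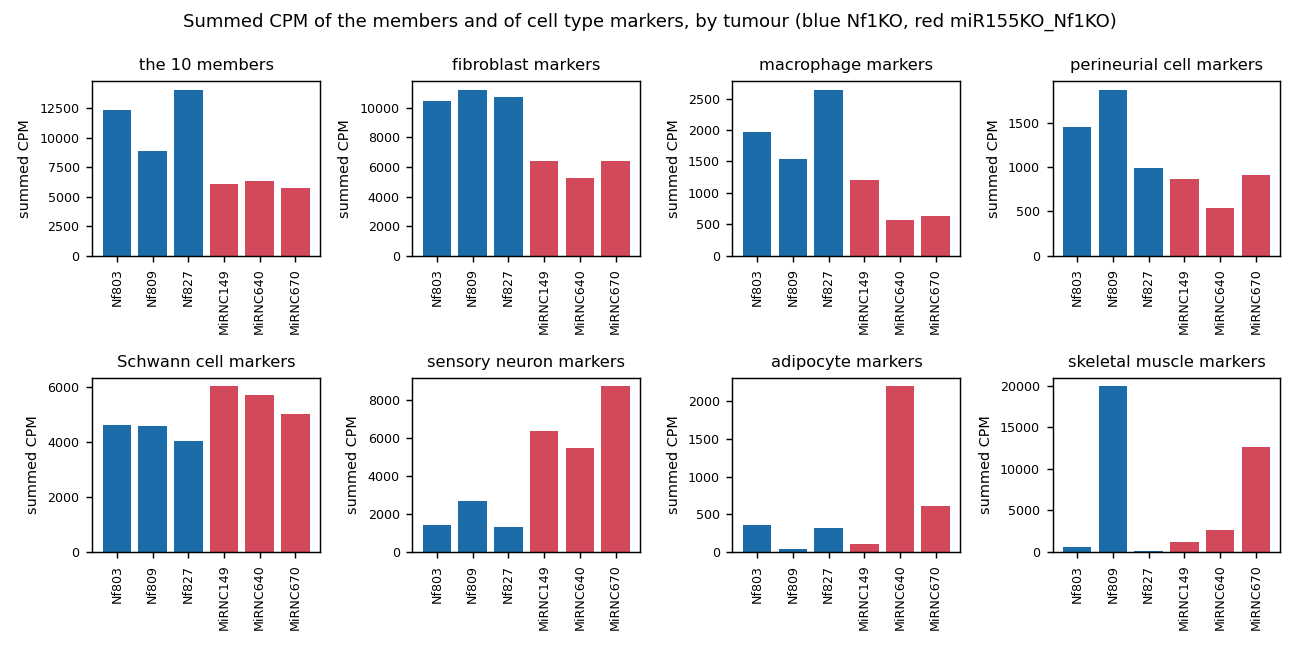
Summed TMM-scaled CPM in each tumour for the 10 genes and for 7 lists of cell type markers, with Nf1KO in blue and miR155KO_Nf1KO in red, each panel on its own axis from 0. The sums of the 10 genes and of the fibroblast, macrophage and perineurial markers are lower in every miR155KO_Nf1KO tumour, the perineurial sum only with Cldn1, the Schwann cell and sensory neuron markers are higher, and adipocyte and muscle sums are high in single tumours.

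The same levels were also set against the summed fibroblast markers of each tumour, a comparison chosen after the data were seen. That sum is led by matrix genes such as Dcn and Col1a2, so it does not measure the number of fibroblasts alone. Per 1000 CPM of these markers, Fn1, Tnc and Fbln2 were lower in miR155KO_Nf1KO without overlap, as were 2.29% of all tested genes. Fn1 was then at 161 ± 35.3 against 306 ± 86.0, whereas Fbn1 was at 70.5 ± 7.63 against 74.0 ± 10.7 (SD, n = 3 each). Fbn1, Postn, Thbs1, Thbs2, Sparc and Fbln1 overlapped between groups on this scale. Fbln5 was higher without overlap, as were 65.9% of all tested genes, since the marker sum itself was lower in miR155KO_Nf1KO. Set against the macrophage markers or the perineurial markers in the same way, no gene was lower without overlap. On each of these 2 scales 9 genes overlapped, Fn1, Tnc and Fbln2 among them, and Fbln5 was higher. The share over all tested genes was not computed on these 2 scales.

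Among the other genes of the elastic fibre, 5 of 15 tested fell and none rose, with a median log2 fold change of −1.02. Ltbp1, which tethers latent TGF-beta to fibrillin, fell from 368 ± 11.8 to 124 ± 30.4 CPM (SD, n = 3 each; log2 fold change −1.57, SE 0.19, edgeR's quasi-likelihood fit, Benjamini-Hochberg adjusted p = 0.0186). Emilin1, an elastin-associated glycoprotein, fell by 1.98 on the log2 scale and Ltbp3 fell by 0.68. The 2 remaining calls were Fbn2, with a log2 fold change of −2.07, and Efemp2, another fibulin, with −1.01, both named after their values were seen.

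The relatives of tenascin and thrombospondin did not move as a block. Of 5 tested, Thbs4, a thrombospondin of muscle, tendon and injured nerve, fell from 632 ± 3.19 to 171 ± 49.7 CPM (SD, n = 3 each; log2 fold change −1.89, SE 0.22, edgeR's quasi-likelihood fit, Benjamini-Hochberg adjusted p = 0.0186). Tnr, the tenascin of the nervous system, rose from 0.742 ± 0.549 to 4.99 ± 2.16 CPM (SD, n = 3 each; edgeR's quasi-likelihood fit, Benjamini-Hochberg adjusted p = 0.0463). These values rest on few reads, 10, 21 and 3 in Nf803, Nf809 and Nf827, and 52, 62 and 94 in MiRNC149, MiRNC640 and MiRNC670. The call of Tnr was lost in 8 of the 23 alternatives. Comp had a log2 fold change of 0.80 and did not pass (edgeR's quasi-likelihood fit, Benjamini-Hochberg adjusted p = 0.366).

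Of 7 relatives of Sparc tested, 2 rose and none fell. Spock1 and Spock2, proteoglycans known from nervous tissue, rose from 28.2 ± 10.7 to 93.6 ± 26.0 CPM and from 294 ± 154 to 1011 ± 314 CPM (SD, n = 3 each). Spock3 had a log2 fold change of 1.71 and did not pass (edgeR's quasi-likelihood fit, Benjamini-Hochberg adjusted p = 0.0735). These genes stand beside the higher sensory neuron markers, and the part of those cells in their rise was not tested.

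Of 17 other matricellular and adhesive genes tested, 3 fell and none rose, with a median log2 fold change of −0.33. Tgfbi, a TGF-beta induced integrin ligand, fell from 476 ± 118 to 152 ± 42.3 CPM, and Mgp, an inhibitor of calcification, fell from 174 ± 53.6 to 39.5 ± 23.5 CPM (SD, n = 3 each). Ecm1 fell by 0.80 on the log2 scale.

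Of 17 receptor genes, 4 fell and none rose, with a median log2 fold change of −0.49. Itga9, the integrin chain that binds tenascin-C, fell from 83.9 ± 10.2 to 36.9 ± 6.60 CPM (SD, n = 3 each), and Itga4, whose integrin binds fibronectin, fell by 1.39 on the log2 scale. The syndecan Sdc1, a heparan sulfate receptor, fell by 1.46. Itgb1, the beta chain common to most of these integrins, fell by 0.49 and was named after its value was seen.

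Among proteases and inhibitors, 7 of 18 fell and 1 rose, with a median log2 fold change of −0.89. Adamts1, a secreted metalloprotease, was at 73.7 ± 5.45 against 227 ± 5.16 CPM (SD, n = 3 each; log2 fold change −1.62, SE 0.11, edgeR's quasi-likelihood fit, Benjamini-Hochberg adjusted p = 0.0183). Serpine2, an inhibitor of thrombin and plasminogen activators, fell by 1.37 on the log2 scale. Bmp1, the protease that trims procollagen, fell by 1.10, while its relative Tll1 rose from 6.60 ± 1.42 to 18.4 ± 6.42 CPM (SD, n = 3 each) and was named after its value was seen. None of the 3 TGF-beta ligand genes, whose products induce several matrix genes, was called by edgeR. Their log2 fold changes were −1.08 for Tgfb1, −1.25 for Tgfb2 and −0.52 for Tgfb3 (edgeR's quasi-likelihood fit, Benjamini-Hochberg adjusted p = 0.0559, 0.0563 and 0.186).

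**Figure D4:**
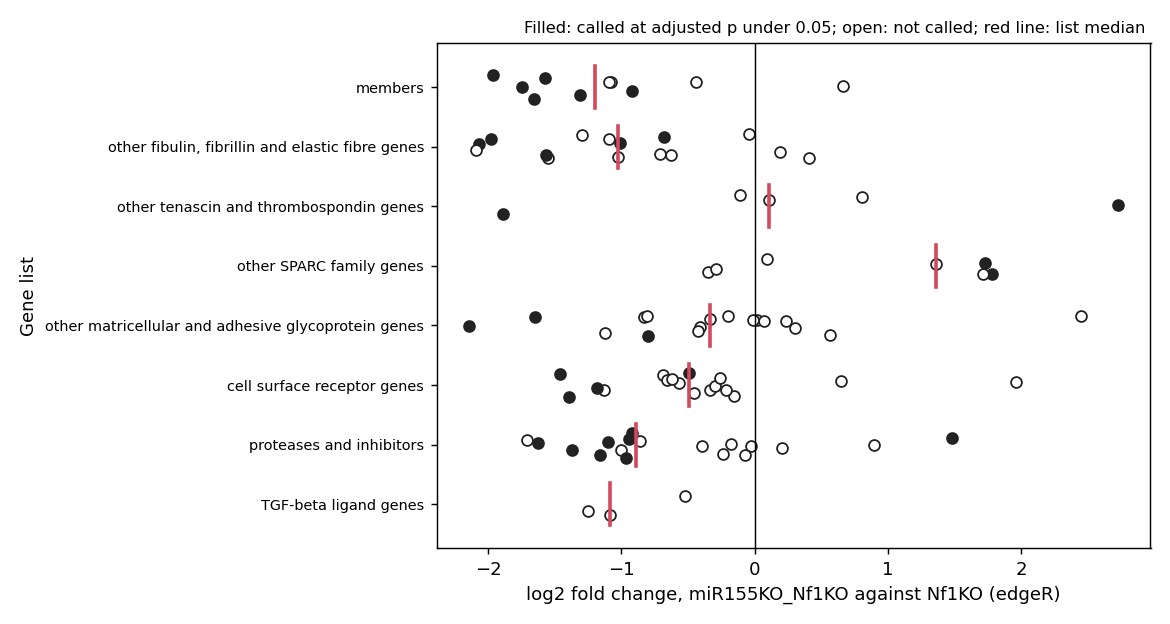
Log2 fold change of each tested gene, miR155KO_Nf1KO against Nf1KO from edgeR, for the 10 genes (top row) and 7 lists of related genes. Filled points were called at an adjusted p under 0.05, and red lines are list medians. The medians of the elastic fibre, protease and TGF-beta lists lie near that of the 10 genes, and the median of the SPARC family lies to the right of 0.

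The genes whose profile over the 6 tumours was most like the mean profile of the 10 were found by Pearson's r on log2 CPM among 7682 genes. They were H2afy (r = 0.996), Adgre5 (0.996), Wasf2 (0.995), Zfp263 (0.995) and Adamts1 (0.994). The genes of lowest r were Ackr1 (−0.995), Wdr7 (−0.995), Ndrg3 (−0.995), S100b (−0.994) and Ppm1a (−0.993). Such an r rests on the same 6 libraries as the difference between groups.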

How the data were processed

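RNA sequencing of 6 neurofibromas gave 1 table, in which the authors deposited unscaled read counts per gene symbol and tumour. The genome build was mm10 and the tools featureCounts 1.5.2 and HISAT2 2.0.5, per the submitters' processing notes. No source used here names the annotation or the strand setting, so reads of overlapping, antisense or closely related genes may be shared or dropped. Replicate tumours differed by at least 23.2 times the variance of Poisson sampling, and none was treated as a repeat.

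All genes were fitted in edgeR 4.0.16 (R 4.3.3; filterByExpr with minimum count 10 and minimum total 15; TMM; group as the only term; two-sided quasi-likelihood test), with Benjamini-Hochberg adjustment over 15604 genes and calls at an adjusted p under 0.05. The script was tested on simulated data. Standard errors follow from the F statistic, and intervals are 95%. Ratios used counts plus 0.5 and exact permutation tests (scipy 1.17.1). Alternatives included other scalings and filters, DESeq2 1.42.0, limma 3.58.1 voom, sex as a covariate and leaving out tumours.

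The 10 genes and all gene lists were chosen with earlier results of these data known. Named genes are the 10, the 3 smallest p of each pathway list, the 2 highest levels of each marker list, and the 5 most and least alike profiles among genes with a mean log2 CPM (prior count 2) of at least 4, leaving out predicted genes. Of the listed genes, Hmcn2 matched no symbol of the table. Some genes of the lists are not reported here. Promoters and the microRNA came from RefSeq on GRCm38.p6, and exons and 3′ UTRs from GENCODE M21 on GRCm38, the assembly behind mm10.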

Additional observations from a re-analysis of the deposited data

How the results depend on the processing

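The log2 fold changes of the 10 genes were recomputed under 23 alternatives, giving 230 values. Of these, 191 kept their direction and their side of the threshold, 25 lost a call, 14 gained one and none changed direction. Every one of the scaling, filter, sex covariate and robust settings called the same number of the 10 genes lower, 6, and so did limma voom. DESeq2, voom with sample quality weights and a threshold of 0.10 called 7. Leaving out 1 tumour moved that number between 0 and 6 in edgeR. The number called higher was 0 to 1 when 1 tumour was left out, and 1 with DESeq2, with voom sample quality weights, without tumours MiRNC670 and Nf809 together, at an adjusted p under 0.10, and with DESeq2 without MiRNC670 or without Nf809. In all, 1554 genes were called, against 2962 with DESeq2, 2675 with voom sample quality weights and 2702 at an adjusted p under 0.10. The fit with sex as a covariate called 1036 genes. Leaving out 1 tumour gave 0 to 2242 in edgeR, and 1975 to 3349 in DESeq2, with 3205 without MiRNC149, 3349 without Nf809 and fewer than with all tumours in the other 4 fits. The lists changed with the tumours too: elastic fibre genes called lower numbered 0 to 6, proteases and inhibitors 0 to 8, and macrophage markers 0 to 10. The fits without a tumour use fewer samples, and no further cause was tested. The DESeq2 fits without a tumour were chosen after the data were seen. No paired analysis was possible because the groups share no replicate number. Depth limits Fbln1 most, which had the fewest reads of the 10 genes.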

Other observations

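The sex of the tumours, read from Xist and Y-linked reads, was spread over both groups, with 1 female and 2 male tumours in miR155KO_Nf1KO and 2 female and 1 male in Nf1KO. In both sexes every miR155KO_Nf1KO tumour was below every Nf1KO tumour of the same sex for 8 of the 10 genes, all but Sparc and Fbln5, and for 21.1% of all tested genes. Fn1, Postn and Thbs2 were higher in the female tumours of both groups, as were 13.2% of all tested genes, and Fbln1 was lower in them, as were 11.5%. These shares are not far from those of the 10 genes, 3 and 1 of 10, and nothing is read from them. Fn1 was 2.95-fold higher in Nf1KO than in miR155KO_Nf1KO among female tumours and 2.83-fold among male tumours. For Thbs2 the values were 2.36-fold and 2.80-fold, and for Tnc 4.41-fold and 2.60-fold. With sex as a term in the edgeR fit, the same number of the 10 genes, 6, was called lower. That fit called 1036 of all 15604 tested genes, against 1554 without the term. With 1 tumour in some of these cells, no difference between the sexes was tested.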
